A study of Danio rerio with 18 samples.

Results

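The Wnt pathway genes described here were the rows of a zebrafish tumour count table whose gene names mark Wnt ligands, Frizzled receptors, their LRP5 and LRP6 co-receptors, secreted Frizzled-related proteins (SFRP), Dickkopf proteins (DKK), axins and TCF/LEF factors. A name that begins with wnt, fzd, sfrp or dkk and a digit was taken, along with LEF1, TCF7, tcf7l1a, tcf7l1b, TCF7L2, AXIN1, AXIN2, LRP5 and LRP6. The rule found 54 of the 27057 genes in the table, of which 25 are ligands, 13 receptors or co-receptors, 10 secreted modulators, 2 axins and 4 TCF/LEF factors. Another 4 genes of the families, a second WNT8A gene (ENSDARG00000078507), FZD4, fzd6 and FZD1, have no row and were not analysed here. Zebrafish carry several copies of many of these genes, and the gene names used here are often the human symbol, so the Ensembl identifier is given where 2 copies have 1 name.

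Wnt proteins are secreted lipid-modified signals that bind Frizzled receptors. With the co-receptors LRP5 and LRP6 they halt a destruction complex built on axin, so that beta-catenin accumulates and acts with TCF/LEF factors on its target genes, while a separate planar cell polarity branch uses Frizzled without beta-catenin. In the neural crest Wnt signals take part in the induction of the crest and in the choice of the pigment cell fate, where Lef1 and beta-catenin act on the promoter of the melanocyte regulator mitfa.

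RNA from whole tumours of F0 zebrafish was sequenced. Of the 18 tumours, 12 came from fish that carried sox10-BRAFV600E, where the promoter of the neural crest and glial gene sox10 drives the oncogene (sox10 tumours), and 6 from fish that carried mitfa-BRAFV600E, where the melanocyte promoter mitfa drives it (mitfa tumours). Both groups were made in the Tu line on a p53-/- background by injection of the plasmid at the 1-cell stage, and the fish were adult at harvest. Each fish of a founder generation is a mosaic with its own insertions. How many fish gave the tumours is not stated in the labels, so the p-values below rest on the spread between tumours alone, which may include technical spread. No batch is given either, and one that follows the plasmid cannot be told apart from it.

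The libraries held 14973777 to 21191902 reads in genes. The 9 melanocyte markers summed to 22.6 to 132 CPM (reads scaled to a constant total per library) in sox10 tumours, against 4251 to 17990 CPM in mitfa tumours, so the labelled melanoma carried little pigment cell transcript in the sox10 group. The 10 Schwann cell and glia markers summed to 9250 to 54030 CPM in sox10 tumours, against 446 to 803 CPM in mitfa tumours. Sox10 tumours 9 and 10 were the most alike, with a chi-square of 8.26 per degree of freedom over genes. The next pair, tumours 4 and 7, had 50.1, and the median over pairs of sox10 tumours was 177. Tumours 9 and 10 thus differed by more than sampling noise but may not be independent. The share of reads outside genes was 14.3% ± 2 in sox10 tumours and 10.8% ± 1.45 in mitfa tumours (SD, n = 12 and 6).

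Of the Wnt pathway genes, 36 had enough reads to be tested among 18731 genes. In sox10 tumours 13 were higher and 7 lower than in mitfa tumours at an adjusted p under 0.05 (edgeR quasi-likelihood test, Benjamini-Hochberg adjustment over all genes tested), and 16 were not called. The called genes make up 55.6% of the 36, beside 43.9% of all genes tested. The higher ones make up 36.1%, beside 21.5% of all genes, and the lower ones 19.4%, beside 22.4%. The excess of called genes was not kept when each tumour's percentage of reads outside genes was added to the model. There 5 of the 36 were higher and 4 lower, beside 2432 and 2489 of the 18731 genes. That percentage differed between the groups, so its effect cannot be fully told apart from that of the plasmid. The read filter treats the 2 directions unequally, for all genes alike. A gene high in sox10 tumours can pass on any 6 of 12, one high only in mitfa tumours must pass on all 6. The higher genes WNT8A, wnt6a, FZD8 (ENSDARG00000038569) and DKK3 (ENSDARG00000103591) had at most 0.928, 0.810, 0.694 and 0.347 CPM in a mitfa tumour. WNT5A, higher in mitfa tumours by its median, was not tested. The median log2 fold change (sox10 over mitfa) was -0.09 for the 36 genes and -0.03 for all genes. In a whole tumour, fewer cells of a type and less RNA per cell cannot be told apart.

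The counts by role are given as a description, and the difference between roles was not tested. Each share stands beside 43.9% of all genes tested. Among receptors and co-receptors 9 of 11 tested genes were called (81.8%). Among Frizzleds alone it was 8 of 9 (88.9%), with 5 higher and 3 lower in sox10 tumours. Once the percentage of reads outside genes entered the model, FZD2, both FZD3 copies, FZD7 (ENSDARG00000060004), FZD9 and LRP6 lost their calls. Both FZD8 copies and FZD7 (ENSDARG00000027589) kept theirs. Fewer of all genes were called there too. For FZD2 (-1.31), FZD7 (ENSDARG00000060004; 1.95) and FZD9 (-2.64) the log2 fold change was no smaller in size than before. The FZD9 call was lost in 11 of 26 alternative analyses. Among ligands 3 of 11 tested genes were called (27.3%), a share below that of all genes. Several tested ligands (WNT3A, WNT4, WNT10B and WNT16) had medians under 1 CPM in both groups, where few reads limit what a test can call. The called genes also included 4 of 8 secreted modulators (50%), 2 of 4 TCF/LEF factors (50%) and both axins. The 50% shares are near that of all genes, and each role holds few genes. All 12 sox10 tumours lay above all 6 mitfa tumours for 3 genes, both FZD8 copies and TCF7L2 (8.33% of the 36 genes, beside 6.85% of all genes tested). They lay below for 1 gene, a FZD7 copy (2.78%, beside 4.91%).

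**Figure D1:**
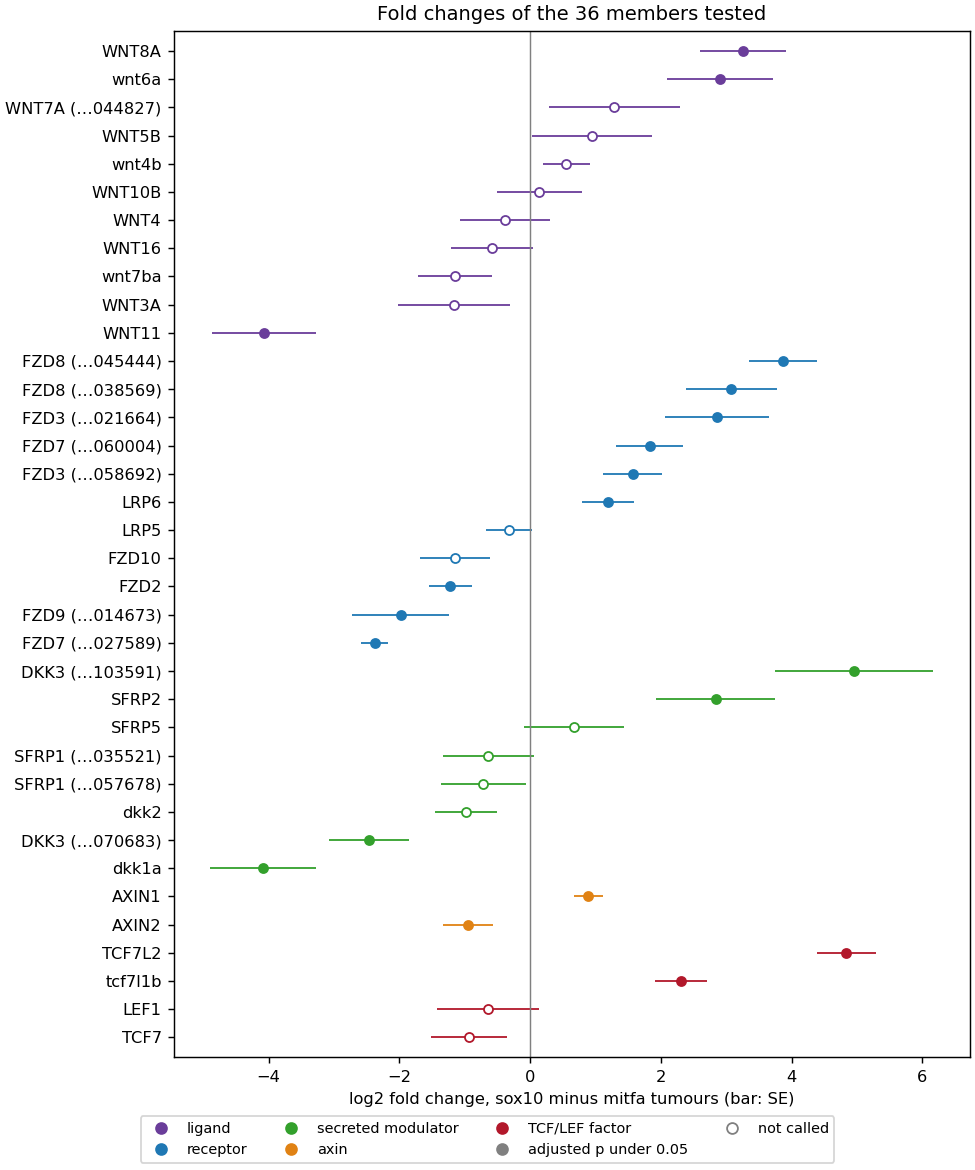
Log2 fold change of sox10 over mitfa tumours for the 36 Wnt pathway genes tested, in order of size within each role, with the standard error as a bar. Filled points passed an adjusted p of 0.05 (13 higher, 7 lower) and open points did not; the Frizzleds spread to both sides, with the copies of FZD7 at -2.38 and 1.83.

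WNT11 was the ligand with the largest fall among those tested. Wnt11 proteins act mostly through the planar cell polarity branch. WNT11 had 0.181 CPM in the lowest, 1.25 in the median and 6.37 in the highest sox10 tumour, against 0.199, 9.35 and 93.4 CPM in mitfa tumours. In 4 of the 6 mitfa tumours it was above every sox10 tumour, while mitfa tumour 1 was among the lowest of all 18. The log2 fold change was -4.07 ± 0.79 (SE; edgeR adjusted p = 0.000387).

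WNT8A and wnt6a were higher in sox10 tumours. WNT8A (ENSDARG00000052910), a beta-catenin ligand that patterns the posterior of the zebrafish embryo, had 0.903, 2.57 and 15.03 CPM (lowest, median and highest) in sox10 tumours, against 0.0547, 0.358 and 0.928 CPM in mitfa tumours. Of the 12 sox10 tumours 11 were above every mitfa tumour, and the log2 fold change was 3.26 ± 0.66 (SE; edgeR adjusted p = 0.000565). The ligand gene wnt6a had 0.130, 1.49 and 14.3 CPM in sox10 tumours, against 0.136, 0.391 and 0.810 CPM in mitfa tumours. In 10 of the 12 sox10 tumours wnt6a was above every mitfa tumour, with the peak in tumour 7 and the lowest value in tumour 12. Its log2 fold change was 2.90 ± 0.81 (SE; edgeR adjusted p = 0.00674). Limma with sample weights gave 2.14 with an adjusted p of 0.0898.

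The other 8 ligands tested were not called, and some of them varied widely between tumours of 1 group. WNT5B, a ligand of the non-canonical branch that shapes the zebrafish body axis and cartilage, had 0.342, 2.30 and 39.9 CPM in sox10 tumours, against 0.204, 2.71 and 10.9 CPM in mitfa tumours (log2 fold change 0.95 ± 0.92 SE, edgeR adjusted p = 0.426). Its 2 highest values, 39.9 and 30.8 CPM, were in sox10 tumours 5 and 3. WNT7A (ENSDARG00000044827), a ligand known for its part in brain vessel growth, spread from 0.421 to 27.96 CPM over sox10 tumours and from 0 to 9.68 CPM over mitfa tumours. WNT3A, a classical beta-catenin ligand, had 0, 0.192 and 1.12 CPM in sox10 tumours, against 0.0513, 0.532 and 2.46 CPM in mitfa tumours (-1.16 ± 0.86 SE, edgeR adjusted p = 0.284). The remaining 5, wnt4b, WNT4, WNT10B, WNT16 and wnt7ba, had log2 fold changes of -1.15 to 0.55, with edgeR adjusted p of 0.104 to 0.882.

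A low level was the commonest state of a Wnt ligand in these tumours. The 18 untested genes, 14 ligands, FZD5, the FZD9 copy ENSDARG00000035185, dkk1b and sfrp2l, had 16 to 182 reads over all tumours together. None exceeded 4.27 CPM in any tumour, and 9 never reached 1 CPM. In 1 library, 3 reads correspond to 0.146 to 0.204 CPM. WNT1, a ligand of the neural tube and crest, had 0, 0.177 and 0.750 CPM in sox10 tumours, against 0, 0.146 and 0.492 CPM in mitfa tumours. WNT5A, a non-canonical ligand, had 0, 0.121 and 0.772 CPM in sox10 tumours, against 0.205, 0.742 and 4.27 CPM in mitfa tumours. With no filter on low counts, edgeR called WNT8B higher (log2 fold change 4.63, adjusted p = 0.000473). It also called WNT5A lower (-2.48, adjusted p = 0.0183) and WNT9A lower (-2.32, adjusted p = 0.0286) in sox10 tumours. These fitted values depend on the prior count. WNT8B had no read in 4 of the 6 mitfa tumours. WNT5A and WNT9A had reads in every mitfa tumour but none in 3 and 5 sox10 tumours. Most of these mitfa reads lay in mitfa tumour 2. WNT9A had 26 reads there and 1 to 6 in each other mitfa tumour, and WNT5A had 78 there and 4 to 23 in the others. The calls with no filter were not refitted without that tumour.

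**Figure D2:**
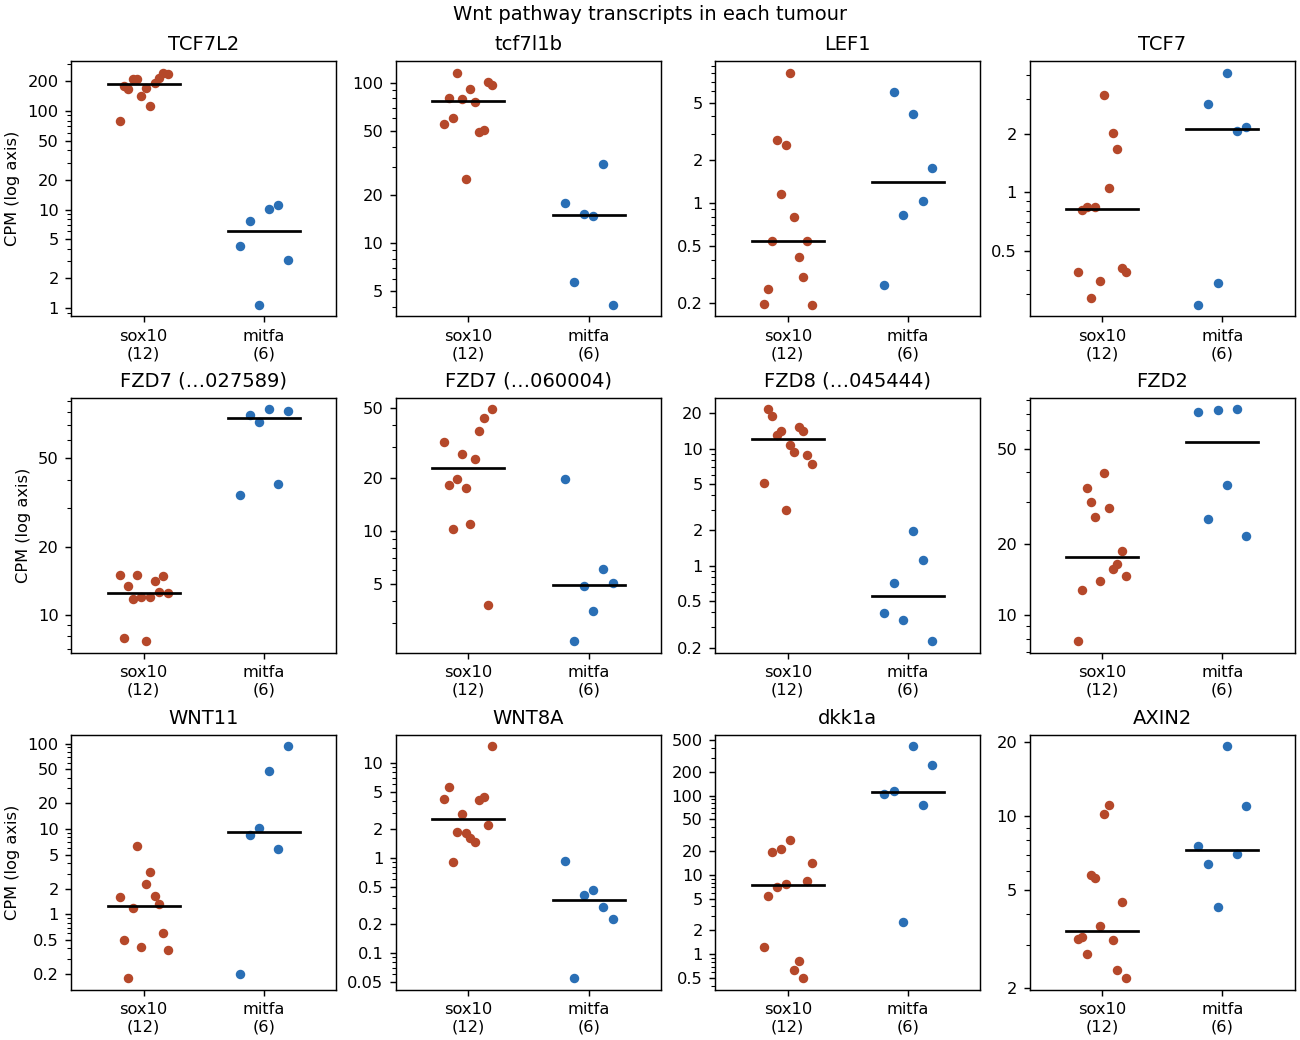
CPM on a log axis in each of the 12 sox10 and 6 mitfa tumours for 12 Wnt pathway genes, a point per tumour and a line at the group median. TCF7L2 and the FZD7 copy ENSDARG00000027589 are separated without overlap, in opposite directions, while LEF1 and TCF7 overlap widely.

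Frizzled genes were higher and lower in the same tumours. FZD7 (ENSDARG00000027589), a Frizzled with roles in both branches of Wnt signalling, had 7.62, 12.5 and 15.1 CPM in sox10 tumours, against 34.1, 75.3 and 82.5 CPM in mitfa tumours. The groups did not overlap, and the log2 fold change was -2.38 ± 0.20 (SE; edgeR adjusted p = 3.25e-08). Its copy, FZD7 (ENSDARG00000060004), had 3.79, 22.6 and 48.8 CPM in sox10 tumours, against 2.35, 4.94 and 19.6 CPM in mitfa tumours. Mitfa tumour 1 held the 19.6 CPM and sox10 tumour 11 the 3.79 CPM, so the groups overlapped through 1 tumour of each kind. This copy was higher in sox10 tumours, by 1.83 ± 0.51 (log2, SE; edgeR adjusted p = 0.00695). It remained called without mitfa tumours 1 and 5. Mitfa tumour 1 also had the largest sum of the 15 radial glia and neural progenitor markers among mitfa tumours (1538 CPM, against a median of 115 CPM over the 6), with 3 of the 15 at 0 reads. The part of such cells in the FZD7 value was not tested.

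Both FZD8 copies and both FZD3 copies were higher in sox10 tumours. FZD8 (ENSDARG00000045444) had 2.99, 11.98 and 21.6 CPM in sox10 tumours, against 0.226, 0.554 and 1.97 CPM in mitfa tumours (log2 fold change 3.87 ± 0.52 SE, edgeR adjusted p = 8.25e-06). FZD8 (ENSDARG00000038569) had 0.906, 1.31 and 4.79 CPM in sox10 tumours, against 0, 0.0672 and 0.694 CPM in mitfa tumours (3.08 ± 0.70 SE, edgeR adjusted p = 0.00152). Neither FZD8 copy overlapped between the groups. FZD3 is a polarity-branch Frizzled known for guiding axons. FZD3 (ENSDARG00000021664) had 2.17, 15.2 and 43.2 CPM in sox10 tumours, against 0.133, 1.21 and 7.12 CPM in mitfa tumours (2.86 ± 0.79 SE, edgeR adjusted p = 0.00666). Its 2 highest values, 43.2 and 41.1 CPM, were in sox10 tumours 9 and 10, which may not be independent. FZD3 (ENSDARG00000058692) had 6.74, 19.1 and 28.2 CPM in sox10 tumours, against 0.885, 5.51 and 14.4 CPM in mitfa tumours (1.57 ± 0.45 SE, edgeR adjusted p = 0.00788). The sum of the 11 neuron markers was higher too, at 469 to 1657 CPM in sox10 tumours, against 26.1 to 302 CPM in mitfa tumours. Of the 11, 9 were called higher (81.8%, beside 21.5% of all genes tested). The other 2, SNAP25 (ENSDARG00000058117) and RBFOX3 (ENSDARG00000074310), had lower medians in sox10 tumours. The part of such cells in the FZD3 and FZD8 values was not tested.

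FZD2 and FZD9 were lower in sox10 tumours. FZD2, a Frizzled that also serves Wnt5 ligands, had 7.80, 17.6 and 39.5 CPM in sox10 tumours, against 21.5, 53.1 and 73.0 CPM in mitfa tumours (log2 fold change -1.22 ± 0.33 SE, edgeR adjusted p = 0.00554). Without mitfa tumours 1 and 5 FZD2 was no longer called (-0.87, edgeR adjusted p = 0.0747). FZD9 (ENSDARG00000014673) had 0, 0.172 and 1.5 CPM in sox10 tumours, 2 of which had no read, against 0.133, 1.21 and 2.996 CPM in mitfa tumours. It was lower in sox10 tumours (log2 fold change -1.98 ± 0.74 SE, edgeR adjusted p = 0.0372), but leaving out mitfa tumour 3, 4 or 6 or sox10 tumour 1, 2, 8, 9 or 10 ended the call, with values of -1.92 to -1.59. Summing sox10 tumours 9 and 10 also ended the FZD9 call (-1.90, edgeR adjusted p = 0.0522). FZD10 had 0.271, 2.71 and 6.45 CPM in sox10 tumours, against 2.41, 6.53 and 12.4 CPM in mitfa tumours, and was not called (-1.15 ± 0.53 SE, edgeR adjusted p = 0.0838). It was called lower without sox10 tumours 4 and 7 (-1.5, adjusted p = 0.033), without mitfa tumours 1 and 5 (-1.58, adjusted p = 0.0307) and by limma (-1.42, adjusted p = 0.0474).

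Of the co-receptors, LRP6 was called and LRP5 was not. LRP6 had 27.1, 47.5 and 111 CPM in sox10 tumours, against 10.2, 19.01 and 64.6 CPM in mitfa tumours (log2 fold change 1.19 ± 0.40 SE, edgeR adjusted p = 0.0228). The highest of its mitfa values, in tumour 4, was far from the other 5. The call was lost without mitfa tumour 2, 3 or 6 (1.11, 1.03 and 0.98, with edgeR adjusted p of 0.053, 0.0634 and 0.0663). LRP5 had 3.56, 13.7 and 22.6 CPM in sox10 tumours, against 8.04, 10.8 and 36.1 CPM in mitfa tumours (-0.32 ± 0.35 SE, edgeR adjusted p = 0.484). The difference between the LRP6 and LRP5 fold changes was not tested.

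The Dickkopf gene dkk1a, which encodes a secreted inhibitor that binds LRP5 and LRP6, was lower in sox10 tumours. It had 0.503, 7.38 and 27.4 CPM in sox10 tumours, against 2.59, 109.9 and 419 CPM in mitfa tumours (log2 fold change -4.08 ± 0.81 SE, edgeR adjusted p = 0.000469). In 5 of the 6 mitfa tumours dkk1a was above every sox10 tumour, and mitfa tumour 3, at 2.59 CPM, was the exception. Its relative dkk2 was not called (-0.98 ± 0.48 SE, edgeR adjusted p = 0.103), though it was without mitfa tumour 3 (-1.22, adjusted p = 0.0302) or sox10 tumour 6 (-1.21, adjusted p = 0.0371), and dkk1b was untested, with at most 0.521 CPM in a mitfa tumour.

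The DKK3 copies, which belong to a divergent branch of the Dickkopf family, were called in opposite directions. DKK3 (ENSDARG00000070683) had 1.74, 3.47 and 6.12 CPM in sox10 tumours, against 1.26, 4.82 and 76.3 CPM in mitfa tumours (log2 fold change -2.47 ± 0.61 SE, edgeR adjusted p = 0.00293). That fall rested on mitfa tumours 1 and 5, which had 76.3 and 37.6 CPM. Without mitfa tumour 1 the log2 fold change was -1.41 (edgeR adjusted p = 0.0461), without both it was 0.22 (adjusted p = 0.714), and limma with sample weights gave -0.65 (adjusted p = 0.41). Several marker lists had their highest sums in mitfa tumours 1 and 5. The fibroblast and matrix markers had 3974 and 13380 CPM there (median of the 6 mitfa tumours 2560 CPM). The radial glia and neural progenitor markers had 1538 and 395 CPM (median 115 CPM), and the neuron markers 302 and 168 CPM (median 98.2 CPM). The 10 macrophage markers had 4848 and 4438 CPM (median 2950 CPM). The part of such cells in the DKK3 value was not tested. DKK3 (ENSDARG00000103591) had 0.271, 1.1 and 17.02 CPM in sox10 tumours, against 0, 0.0530 and 0.347 CPM in mitfa tumours (4.96 ± 1.21 SE, edgeR adjusted p = 0.00269). Its 2 highest values, 17.02 and 12.2 CPM, were in sox10 tumours 7 and 4, and it remained called without them (3.11).

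Of the SFRP genes, whose products bind Wnt proteins outside the cell, SFRP2 alone of 4 tested was called. SFRP2 had 0.135, 2.58 and 27.8 CPM in sox10 tumours, against 0.0663, 0.527 and 1.97 CPM in mitfa tumours (log2 fold change 2.84 ± 0.91 SE, edgeR adjusted p = 0.0167). Its peak lay in sox10 tumour 7. Without sox10 tumours 4 and 7 the value was 1.75 with an adjusted p of 0.0557, without mitfa tumours 1 and 5 it was 2.31 with an adjusted p of 0.0747, and limma gave 2.33 with an adjusted p of 0.104. Sox10 tumours 7 and 4 also had the highest sums of the neuron markers, 1657 and 1449 CPM, against a median of 811 CPM over sox10 tumours. The part of such cells in the values of SFRP2 and DKK3 (ENSDARG00000103591) was not tested. SFRP5 and the SFRP1 copies had log2 fold changes of -0.72 to 0.67, with edgeR adjusted p of 0.389 to 0.494.

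The axins moved apart. AXIN1, the constitutive scaffold of the destruction complex, had 43.9, 64.2 and 101 CPM in sox10 tumours, against 24.9, 32.6 and 57.7 CPM in mitfa tumours (log2 fold change 0.89 ± 0.22 SE, edgeR adjusted p = 0.00254). In 8 of the 12 sox10 tumours AXIN1 was above every mitfa tumour. AXIN2, a scaffold whose gene is itself induced by beta-catenin and is widely used as a readout of the pathway, had 2.20, 3.41 and 11.1 CPM in sox10 tumours, against 4.29, 7.29 and 19.3 CPM in mitfa tumours. The groups overlapped, and the log2 fold change of -0.95 ± 0.38 (SE) lay just inside the threshold (edgeR adjusted p = 0.0491). Leaving out 1 tumour ended the AXIN2 call in 14 of 18 cases, with values of -1.13 to -0.60 over the 18. The value nearest 0 came without mitfa tumour 4 (-0.60, edgeR adjusted p = 0.218), and the others that ended the call were mitfa tumours 1, 5 and 6 and all sox10 tumours but 7 and 8. With sox10 tumours 9 and 10 summed, AXIN2 was not called (-0.90, edgeR adjusted p = 0.0702).

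Among the nuclear factors the TCF7L genes were higher and LEF1 and TCF7 were not called. TCF7L2, a TCF factor that can activate or repress depending on beta-catenin and that is also known for its part in myelinating cells, had 79.5, 186 and 245 CPM in sox10 tumours, against 1.09, 6.01 and 11.1 CPM in mitfa tumours. The lowest sox10 tumour was thus well above the highest mitfa tumour, and the log2 fold change was 4.84 ± 0.45 (SE; edgeR adjusted p = 9.48e-08). The gene tcf7l1b, which encodes a mainly repressive TCF factor, had 24.9, 77.6 and 116 CPM in sox10 tumours, against 4.13, 14.9 and 31.0 CPM in mitfa tumours. In 11 of the 12 sox10 tumours tcf7l1b was above every mitfa tumour, and its rise was 2.31 ± 0.40 on the log2 scale (SE; edgeR adjusted p = 0.000112). Of the 10 Schwann cell and glia markers 9 were called higher in sox10 tumours (90%, beside 21.5% of all genes tested). The part of such cells in the TCF7L2 and tcf7l1b values was not tested. A gene named TCF7L1 without a copy letter (ENSDARG00000038159), which may be tcf7l1a and was not counted among the 54, had 20.9, 48.6 and 129 CPM in sox10 tumours, against 11.4, 21.3 and 50.5 CPM in mitfa tumours (1.19 ± 0.39 SE, edgeR adjusted p = 0.0198). Without mitfa tumour 6 it was not called (1.01, edgeR adjusted p = 0.058).

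LEF1 and TCF7 mostly activate target genes with beta-catenin. LEF1 had 0.194, 0.542 and 8.08 CPM in sox10 tumours, against 0.265, 1.39 and 5.91 CPM in mitfa tumours (log2 fold change -0.65 ± 0.78 SE, edgeR adjusted p = 0.52). Its highest value of all 18 was in sox10 tumour 7, and without sox10 tumours 4 and 7 LEF1 was called lower (-1.77, edgeR adjusted p = 0.0352). TCF7 had 0.285, 0.823 and 3.17 CPM in sox10 tumours, against 0.265, 2.10 and 4.11 CPM in mitfa tumours (-0.94 ± 0.58 SE, edgeR adjusted p = 0.195). A p that misses the threshold does not show that LEF1 or TCF7 was alike in the groups.

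The differing directions within a gene name were examined tumour by tumour, as the log2 ratio of reads of 1 copy to the other. All 5 names with both copies tested were compared, a comparison chosen after their values were seen, with an exact 2-sided permutation test over the 18564 ways to divide the tumours and Benjamini-Hochberg adjustment over the 5. The length of each copy cancels in the difference between groups but not in the ratio itself. For FZD7 the ratio of ENSDARG00000027589 to ENSDARG00000060004 was -0.73 ± 1.05 in sox10 tumours and 3.49 ± 1.54 in mitfa tumours (SD, n = 12 and 6), a difference of -4.23 (exact p = 0.000108, adjusted p = 0.000269). For DKK3 the ratio of ENSDARG00000070683 to ENSDARG00000103591 was 1.48 ± 1.57 in sox10 tumours and 6.45 ± 2.97 in mitfa tumours (SD, n = 12 and 6). The difference of -4.97 had the smallest p the design allows (exact p = 5.39e-05, adjusted p = 0.000269). No DKK3 ratio of a sox10 tumour, at most 3.13, reached the lowest mitfa ratio of 3.97. Mitfa tumours with no read of the second copy lean on the 0.5 reads added to each count, and with 2 reads added the difference was -3.96. Without mitfa tumours 1 and 5 it was -3.16 (exact permutation adjusted p = 0.00549).

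The other names gave smaller differences. For FZD3 the ratio of ENSDARG00000021664 to ENSDARG00000058692 was -0.31 ± 1.17 in sox10 tumours and -2.08 ± 1.78 in mitfa tumours (SD, n = 12 and 6; difference 1.77, exact p = 0.0187, adjusted p = 0.0312). The FZD3 difference lost its call without mitfa tumour 1 (1.54, adjusted p = 0.0927), mitfa tumour 5 (1.15, adjusted p = 0.117) or sox10 tumour 9 (1.65, adjusted p = 0.0501) in the exact permutation test. It was 0.71 without both mitfa tumours 1 and 5 (adjusted p = 0.331) and 1.80 without sox10 tumours 4 and 7 (adjusted p = 0.0522). For FZD8 and SFRP1 the differences were -0.42 (exact p = 0.568) and 0.12 (exact p = 0.898).

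**Figure D3:**
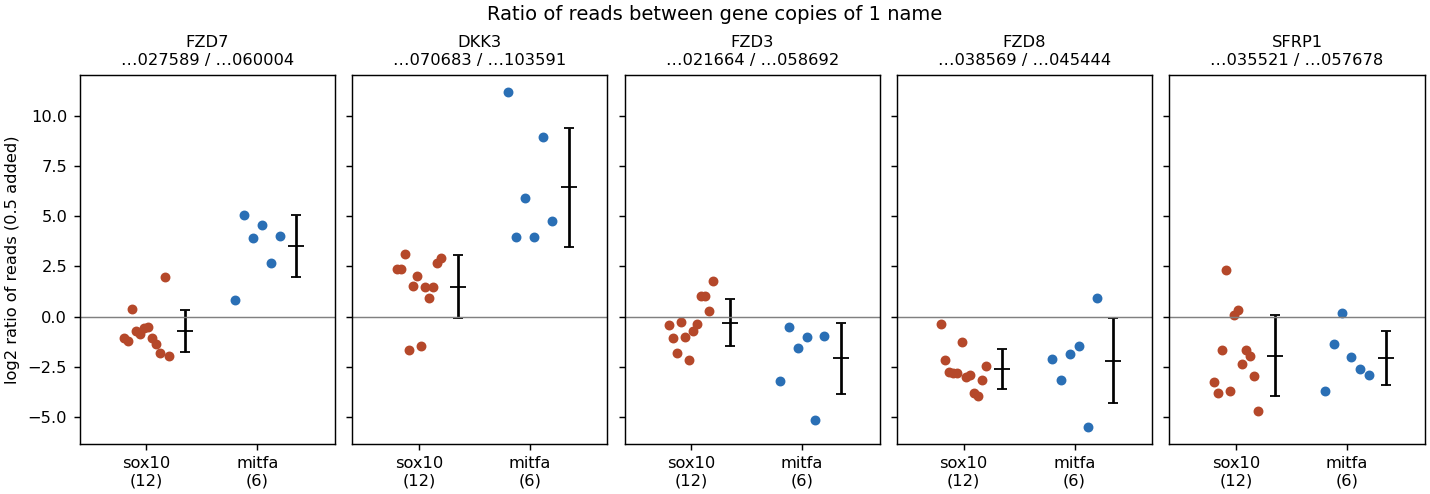
Log2 ratio of reads between the 2 copies of each gene name in each sox10 (12) and mitfa (6) tumour, with 0.5 reads added to each count; points are tumours, and the bar beside them is the mean and SD. For FZD7 the means are -0.73 in sox10 and 3.49 in mitfa tumours, while for SFRP1 they are -1.95 in sox10 and -2.07 in mitfa tumours.

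Peaks of the Wnt pathway genes gathered in a few tumours. Among the 12 sox10 tumours, tumour 7 had the highest value of 14 of the 36 genes tested (38.9%), beside 13.6% of all genes tested. Among the 6 mitfa tumours, tumour 4 had the highest value of 18 of the 36 genes (50%), beside 15.8% of all genes. For wnt6a, FZD3 (ENSDARG00000058692), LRP5, dkk1a, DKK3 (ENSDARG00000103591), SFRP2, SFRP5 and TCF7 the highest sox10 tumour was 7 and the highest mitfa tumour was 4. Mitfa tumour 4 also had the largest sum of the 12 epidermis markers, 9299 CPM, against a median of 5344 CPM over mitfa tumours. Its Schwann cell and glia sum was the largest too (803 CPM, median 652 CPM), while its radial glia and neural progenitor sum was the smallest (78.5 CPM). The share of reads outside genes, 12.8%, was the highest of the mitfa tumours. The part of such cells, or of that share, in these peaks was not tested.

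**Figure D4:**
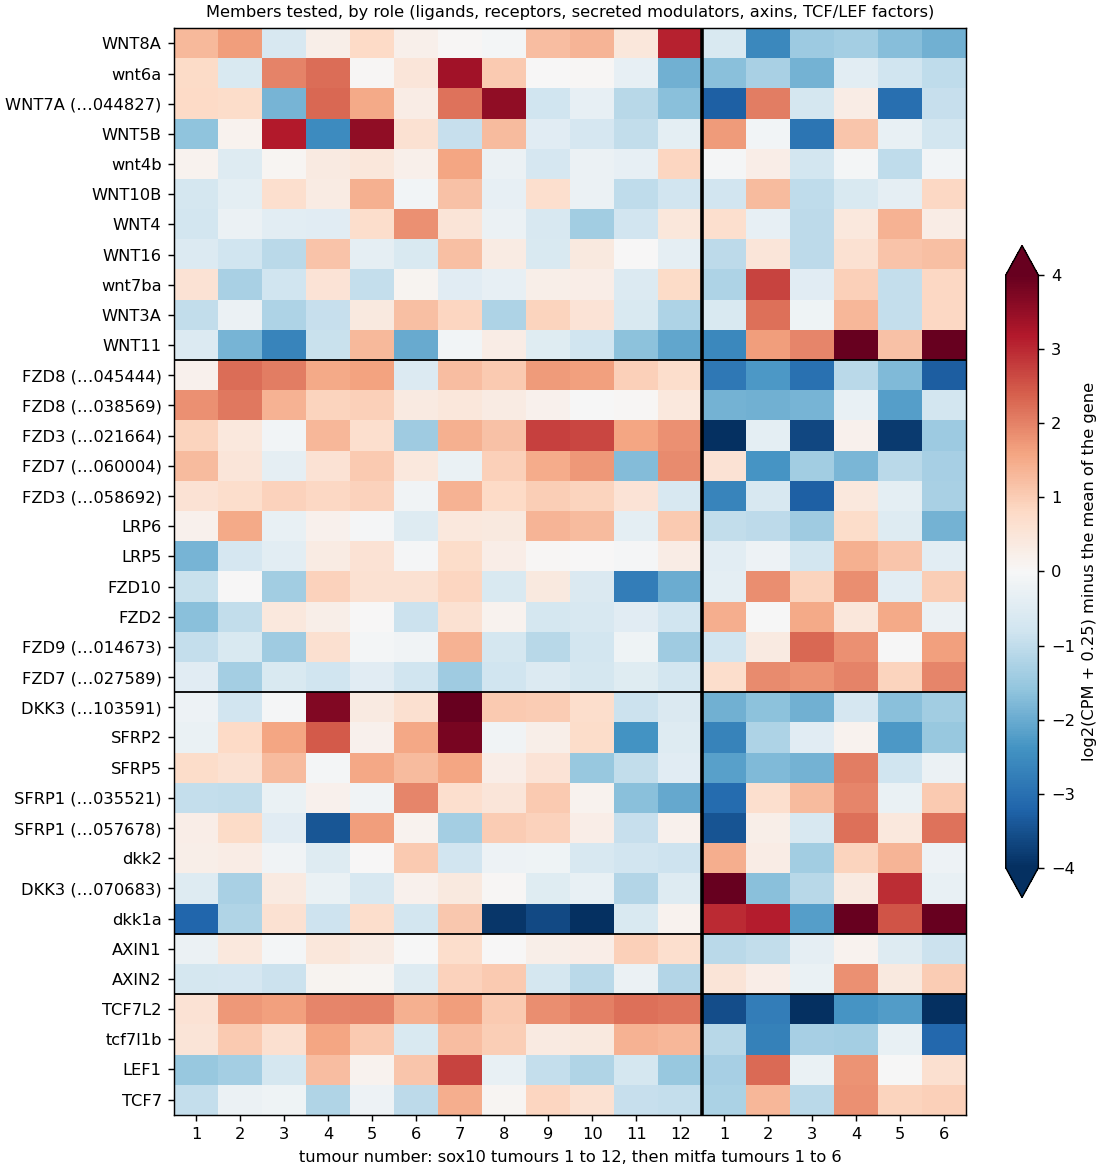
Log2(CPM + 0.25) minus the mean over tumours for the 36 genes tested, with sox10 tumours 1 to 12 left of the line and mitfa tumours 1 to 6 right of it; genes are ordered by fold change within each role, and colours end at -4 and 4. Sox10 tumour 7 and mitfa tumour 4 hold many of the peaks (14 and 18 of the 36), and sox10 tumours 9 and 10 look alike.

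Whether transcripts induced by beta-catenin vary with AXIN2 among tumours of 1 kind was asked for LEF1, TCF7, ZNRF3 and NKD1, in each group, a family of 8 relations. Across the 12 sox10 tumours AXIN2 and LEF1 had a Pearson r of 0.70 (permutation p = 0.013, adjusted p = 0.104) and a Spearman rho of 0.76 (permutation p = 0.0066, adjusted p = 0.0528), neither past the threshold after adjustment. Without tumours 7 and 8, the farthest from the AXIN2 median, r was 0.71, and without tumours 4 and 7 it was 0.48 (permutation adjusted p = 0.459). Pearson r with TCF7, ZNRF3 and NKD1 in sox10 tumours was 0.28, 0.28 and 0.38 (permutation adjusted p = 0.455 to 0.47). In the 6 mitfa tumours AXIN2 had r of 0.41 with LEF1, 0.64 with TCF7, -0.02 with ZNRF3 and 0.67 with NKD1 (exact permutation adjusted p = 0.455 to 0.967). Those for LEF1, TCF7 and NKD1 rested on mitfa tumours 3 and 4, without which they were -0.16, 0.02 and -0.54.

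**Figure D5:**
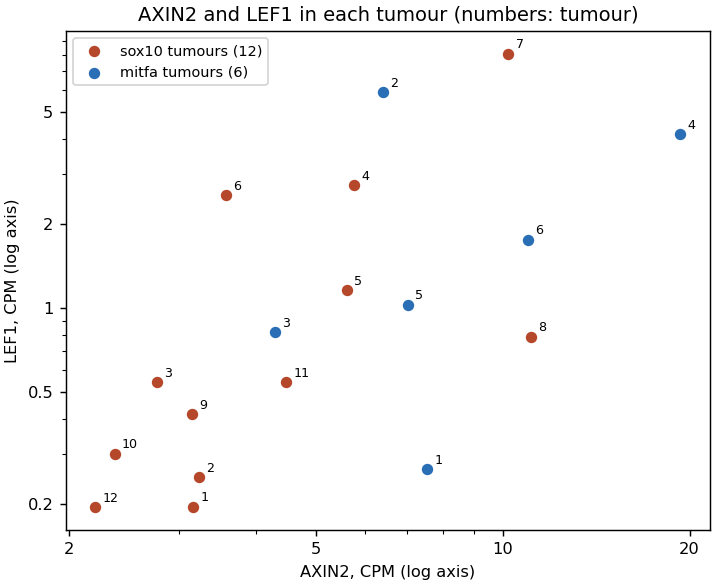
CPM of LEF1 (vertical, log axis) against AXIN2 (horizontal, log axis) in each tumour, numbered within its group. Across the 12 sox10 tumours r was 0.70, and sox10 tumour 7 and mitfa tumour 4 are high for both genes.

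The rest of the pathway was read from lists of genes outside the rule. The share called in each list is given beside 43.9% of all genes tested (21.5% higher and 22.4% lower). No list was tested as a set. Of 20 destruction complex genes and cytoplasmic transducers, all tested, sox10 tumours had 5 higher and 2 lower (35% called). AMER2, which brings APC to the membrane, had a median of 86.8 CPM in sox10 tumours, against 5.29 CPM in mitfa tumours (log2 fold change 2.88 ± 0.55 SE, edgeR adjusted p = 0.000302). APC2, a relative of APC, had medians of 55.8 CPM in sox10 and 1.77 CPM in mitfa tumours (2.80 ± 0.72 SE, edgeR adjusted p = 0.00384), and 4.74 without mitfa tumour 4. The tankyrase gene TNKS (ENSDARG00000062897), whose product marks axin for degradation, had medians of 116.7 CPM in sox10 and 51.7 CPM in mitfa tumours (1.07 ± 0.22 SE, edgeR adjusted p = 0.000501). The other TNKS copy (ENSDARG00000077650) was not called (-0.03, edgeR adjusted p = 0.915). Of the beta-catenin genes, CTNNB1 was not called (0.16, edgeR adjusted p = 0.71) and ctnnb2 was lower (-0.85 ± 0.29 SE, edgeR adjusted p = 0.0231), a call that ended without mitfa tumour 4 (-0.47, edgeR adjusted p = 0.156).

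Other inhibitors outside the cell or in its membrane had the lowest median log2 fold change of the pathway lists, -2.49 over 8 tested genes. Of these, 4 were lower and 1 higher in sox10 tumours (62.5% called, beside 43.9% of all genes tested). TPBG, a membrane inhibitor of Wnt signalling, had 0.923, 1.62 and 3.99 CPM in sox10 tumours, against 13.1, 20.7 and 84.2 CPM in mitfa tumours (-3.99 ± 0.38 SE, edgeR adjusted p = 1.19e-07). WIF1, a secreted protein that binds Wnts, had 0.203, 0.666 and 2.25 CPM in sox10 tumours, against 2.57, 6.19 and 39.6 CPM in mitfa tumours (-4.07 ± 0.54 SE, edgeR adjusted p = 7.23e-06), and -2.52 without mitfa tumours 1 and 5. For both genes every sox10 tumour lay below every mitfa tumour, as for 4.91% of all genes tested. The secreted Frizzled-related gene frzb, which the name rule does not catch, had 1.18, 4.79 and 25.6 CPM in sox10 tumours, against 1.19, 128.9 and 1503 CPM in mitfa tumours (-6.0 ± 1.01 SE, edgeR adjusted p = 8.83e-05). Some markers of other cells were lower as well. The 12 epidermis markers summed to 174 to 3031 CPM in sox10 tumours, against 3730 to 9299 CPM in mitfa tumours. Of 10 tested, 3 were called lower (30%, beside 22.4% of all genes tested). At most 2 of the 12 were at 0 reads in a sox10 tumour and 1 in a mitfa tumour. The 12 fibroblast and matrix markers had overlapping sums, 314 to 2966 CPM in sox10 tumours, against 193 to 13380 CPM in mitfa tumours. Of the 12, 6 were called lower (50%, beside 22.4% of all genes tested), while both FN1 copies and PDGFRA had higher medians in sox10 tumours. Other marker lists differed as well. Called lower were 7 of 8 tested melanocyte markers, 5 of 7 T cell markers and 5 of 10 macrophage markers, beside 22.4% of all genes tested. In the macrophage list 1 was higher. Of the skeletal muscle and endothelium markers 1 of 10 and 1 of 8 were lower. The part of such cells in the values of the inhibitors, dkk1a and WNT11 was not tested.

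Among R-spondins, their receptors and the ubiquitin ligases that remove Frizzled from the membrane, 3 of 6 tested genes were higher and the other 3 were not called. That is 50% called, beside 43.9% of all genes tested. ZNRF3, one of those ligases, had medians of 24.3 CPM in sox10 and 12.8 CPM in mitfa tumours (log2 fold change 0.87 ± 0.26 SE, edgeR adjusted p = 0.0102). RSPO2, a ligand that strengthens Wnt signals, had medians of 2.70 CPM in sox10 and 0.205 CPM in mitfa tumours (2.44 ± 0.87 SE, edgeR adjusted p = 0.0297), and its receptor gene lgr6 had 1.55 CPM in sox10 and 0.140 CPM in mitfa tumours (2.57 ± 0.87 SE, edgeR adjusted p = 0.0227). The RSPO2 call was lost without mitfa tumour 1, 2, 3, 5 or 6 (2.19 to 2.28) and the value was 4.31 without mitfa tumour 4. The lgr6 call was lost without mitfa tumour 2 or 6 (2.38 and 2.44), and the value was 4.32 without mitfa tumour 1. Of ligand processing and secretion, 1 of 4 tested genes was higher and 1 lower (50% called). The lower one was the glypican GPC4, which serves polarity signalling in zebrafish (16.8 CPM in sox10 and 55.4 CPM in mitfa tumours, -1.85 ± 0.32 SE, edgeR adjusted p = 0.000133).

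Of 15 nuclear cofactors 6 were higher and 2 lower (53.3% called, beside 43.9% of all genes tested). TLE3 (ENSDARG00000069006), a Groucho corepressor of TCF factors, had medians of 101 CPM in sox10 and 23.1 CPM in mitfa tumours (log2 fold change 1.99 ± 0.25 SE, edgeR adjusted p = 4.07e-06). The other TLE3 copy (ENSDARG00000002787) was not called (0.41, edgeR adjusted p = 0.481). PYGO1, which links beta-catenin to chromatin, had 0.318 CPM in sox10 and 2.06 CPM in mitfa tumours (-2.28 ± 0.36 SE, edgeR adjusted p = 4e-05), and EP300 (ENSDARG00000100666), an acetyltransferase, had 59.3 CPM in sox10 and 28.1 CPM in mitfa tumours (0.98 ± 0.25 SE, edgeR adjusted p = 0.00361). Of 19 genes of planar cell polarity and the non-canonical receptors 4 were higher and 7 lower (57.9% called). The polarity cadherins CELSR2 (87.8 CPM in sox10 and 6.80 CPM in mitfa tumours, 3.57 ± 0.57 SE) and CELSR3 (13.9 CPM in sox10 and 0.443 CPM in mitfa tumours, 4.04 ± 0.70 SE) were higher, with edgeR adjusted p of 5.43e-05 and 0.000123. So was the kinase gene MAPK8 (ENSDARG00000009870; 33.6 CPM in sox10 and 6.03 CPM in mitfa tumours, 2.78 ± 0.44 SE, edgeR adjusted p = 4.53e-05). The median log2 fold change of the list was -0.62. Of its lower genes, the Wnt5 co-receptor gene ROR2 had 0.823 CPM in sox10 and 5.86 CPM in mitfa tumours (-2.57 ± 0.50 SE, edgeR adjusted p = 0.000359), and the core polarity gene PRICKLE1 (ENSDARG00000045694) had 5.24 CPM in sox10 and 22.2 CPM in mitfa tumours (-2.30 ± 0.47 SE, edgeR adjusted p = 0.000604). The other PRICKLE1 copy (ENSDARG00000040649) had the opposite sign and was not called (1.17, edgeR adjusted p = 0.269). Another of the cadherins, CELSR1, was lower, against the direction of CELSR2 and CELSR3 (4.0 CPM in sox10 and 13.5 CPM in mitfa tumours, -2.24 ± 0.54 SE, edgeR adjusted p = 0.00233), and was -1.30 without mitfa tumour 4. The other lower genes were ROR1, VANGL1, PRICKLE2 (ENSDARG00000037593) and DAAM1 (ENSDARG00000015059). The other copies of PRICKLE2 and DAAM1 were not called (0.12 and -0.74, with edgeR adjusted p of 0.877 and 0.383).

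Genes widely used as beta-catenin targets did not move 1 way. Of 12 tested outside the 54, 5 were higher and 2 lower (58.3% called, beside 43.9% of all genes tested), with a median log2 fold change of 0.53. MYC (ENSDARG00000045695) was higher, with medians of 231 CPM in sox10 and 22.3 CPM in mitfa tumours (3.0 ± 0.40 SE, edgeR adjusted p = 7.69e-06). BAMBI (ENSDARG00000099677), a pseudoreceptor of the TGF-beta family, was lower, with 4.89 CPM in sox10 and 31.1 CPM in mitfa tumours (-2.39 ± 0.41 SE, edgeR adjusted p = 0.00012). The other BAMBI copy (ENSDARG00000055381) was higher, with 75.7 CPM in sox10 and 17.6 CPM in mitfa tumours (1.87 ± 0.45 SE, edgeR adjusted p = 0.00229). APCDD1L, a relative of the membrane inhibitor APCDD1, was lower as well, with 0.365 CPM in sox10 and 6.91 CPM in mitfa tumours (-4.23 ± 0.78 SE, edgeR adjusted p = 0.000227). ZNRF3 and APCDD1L each stand in 2 lists. The feedback inhibitor NKD1 (2.22 ± 0.70 SE, edgeR adjusted p = 0.015; limma 1.73, adjusted p = 0.139) was higher in sox10 tumours, while AXIN2, above, was lower.

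Not all calls were equally firm. Of the 20 called Wnt pathway genes, 6 kept direction and call under every alternative that gave them a value, namely TCF7L2, tcf7l1b, both FZD8 copies, FZD7 (ENSDARG00000027589) and WNT8A. The percentage of reads outside genes differed between the groups (means of 14.3% in sox10 and 10.8% in mitfa tumours). As a covariate it therefore cannot be fully told apart from the plasmid. With it in the model, 2432 of all genes were higher in place of 4024, and 2489 lower in place of 4190. Among the 20, 12 were no longer called, and TCF7 was called lower (-2.11, edgeR adjusted p = 0.0373). For 4 of the 12 the log2 fold change was at least as far from 0 as before: FZD7 (ENSDARG00000060004; 1.95, edgeR adjusted p = 0.0531), FZD2 (-1.31), FZD9 (-2.64) and AXIN2 (-1.33). For the other 8 it was nearer 0: wnt6a (2.61), SFRP2 (2.25), FZD3 (ENSDARG00000021664; 1.5 and ENSDARG00000058692; 1.05), DKK3 (ENSDARG00000103591; 3.21 and ENSDARG00000070683; -1.79), LRP6 (0.78) and AXIN1 (0.49). Of the pathway genes outside the rule that are named here, TNKS (0.69), ZNRF3 (0.36), RSPO2 (1.12), frzb (-4.17), EP300 (0.55), NKD1 (2.22) and TCF7L1 (0.34) lost their calls with that covariate, with edgeR adjusted p of 0.0552 to 0.647, while MAPK8 (1.83) and ctnnb2 (-1.47) kept theirs. ZNRF3 (0.68), RSPO2 (1.88) and TCF7L1 (1.04) also lost them without mitfa tumours 1 and 5, with edgeR adjusted p of 0.0753 to 0.123.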

How the data were processed

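Whole-tumour RNA from 18 zebrafish tumours was sequenced. The authors deposited raw counts of reads per Ensembl gene. Per the submitters' processing notes, FastQC, Trimmomatic, STAR, DESeq2 and build GRCz10 were used, with no version or role stated. Neither the strand setting nor the treatment of multi-mapping reads is given in the sources used here, so reads of near-identical copies could be shared. Rows that name no gene (19.9% to 30.1% of all counted reads) were left out. Of 27057 genes 24020 had a name in the reference table. Levels are CPM with TMM factors, not corrected for length, and are not compared between genes. Sox10 and mitfa tumours were compared in edgeR 4.0.16 under R 4.3.3 (filterByExpr with min.count 10 and min.total.count 15, TMM, robust quasi-likelihood test, Benjamini-Hochberg adjustment). Correlations used log2 CPM with a prior count of 2 and 100000 permutations (exact for 6 tumours).

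The genes and lists were chosen with earlier results of these data known. Genes named with values were the called ones with a median of at least 1 CPM in the higher group, key ligands, co-receptors, axins and TCF/LEF factors whatever their test, and up to 3 called genes of each pathway list by adjusted p. Names outside this rule (WNT7A, WNT8B, WNT9A, FZD10, dkk2, NKD1, CTNNB1, ctnnb2, ROR1, ROR2, VANGL1, DAAM1, CELSR1, PRICKLE1, PRICKLE2, the other copies of BAMBI, TNKS and TLE3 and the unlettered TCF7L1) were added after seeing values. Alternatives were DESeq2 1.42.0, limma 3.58.1 with voom and sample weights, RLE or upper quartile factors, no filter, at least 5 CPM in 6 tumours, at least a 2-fold difference, a replicate block, the percentage of reads outside genes as covariate, tumours 9 and 10 summed, and tumours left out. The scripts were tested on simulated data, with 194 of 18522 genes changed between groups of the same sizes. Of the changed genes 14.3% at 2-fold, 56.3% at 4-fold and 94% at 16-fold were called in the right direction. Far fewer genes changed there than were called here, so these percentages need not hold for the tumours.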

Additional observations from a re-analysis of the deposited data

Results flagged for a closer look

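In the group of 6 mitfa tumours, 28 genes were examined for a tumour far from the other 5, by the gap to its neighbour over the whole range (Dixon's 95% limit for 6 values), and 5 passed. For normally distributed values chance flags about 1 group in 20. CPM were not transformed here, and all 5 flags were highest values. For values skewed to the high side the chance rate can exceed 1 in 20. WNT5A was 4.27 CPM in mitfa tumour 2, with a gap of 0.723 of the range. The FZD7 copy ENSDARG00000060004 was 19.6 CPM in mitfa tumour 1 (0.785 of the range). LRP6 was 64.6 CPM in mitfa tumour 4 (0.693), dkk1b was 0.521 CPM (0.895) and the DKK3 copy ENSDARG00000103591 was 0.347 CPM (0.674) in the same tumour. The dkk1b and DKK3 values rest on few reads.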

How the results depend on the processing

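Replicate numbers 1 to 6 are shared by the groups but did not pair the tumours: deviations of same-numbered tumours correlated from -0.308 to 0.172. Sox10 tumours 7 to 12 share no number with a mitfa tumour. Under a replicate block the contrast therefore rests on sox10 tumours 1 to 6 and the mitfa tumours. With the replicate block, 3 Wnt pathway genes were lower in place of 7, and over all genes 2660 were higher in place of 4024 and 2109 lower in place of 4190, with a share of higher calls of 55.8% in place of 49%. Named genes whose call ended under the block, with their log2 fold change there, were WNT11 (-3.80), dkk1a (-4.05), FZD3 (ENSDARG00000021664; 2.74), FZD9 (-1.87), LRP6 (1.04), DKK3 (ENSDARG00000070683; -0.90), frzb (-4.02), APCDD1L (-4.22), BAMBI (ENSDARG00000099677; -1.76), lgr6 (3.89), ZNRF3 (0.71), EP300 (0.86), NKD1 (2.14), TCF7L1 (1.08), PRICKLE1 (-1.57) and CELSR1 (-1.62). With reads outside genes as a covariate, 5 Wnt pathway genes were higher in place of 13 and 4 lower, and 2432 of all genes higher and 2489 lower. With at least 5 CPM in 6 tumours, 8 were higher, of 18 tested. With sox10 tumours 9 and 10 summed, 13 were higher and 5 lower, as AXIN2 and FZD9 were no longer called. The calls lost under the block came from a contrast without sox10 tumours 7 to 12. The covariate differed between the groups, so its effect cannot be fully told apart from that of the plasmid. The causes of these 2 changes were not tested further. Leaving out each tumour in turn gave 12 to 14 higher and 5 to 8 lower Wnt pathway genes, 3528 to 4017 higher and 3681 to 4217 lower genes in all, and an AXIN2 with LEF1 correlation of 0.54 to 0.85, whose permutation adjusted p was 0.459 without tumours 4 and 7, 0.0487 without sox10 tumour 6 and 0.0114 without tumour 8. Signs reversed for DKK3 (ENSDARG00000070683) without mitfa tumours 1 and 5 (0.22), for CTNNB1 (-0.01 to 0.49 over single tumours left out), for LRP5 (-0.48 to 0.02 over single tumours left out, 0.02 without mitfa tumour 4), for the FZD8 copy ratio (-1.08 to 0.20 over single tumours left out, 0.20 without mitfa tumour 6) and for the SFRP1 copy ratio (-0.27 to 0.57 likewise, -0.11 with 2 reads added, -0.42 without mitfa tumours 1 and 5, -0.53 without sox10 tumours 4 and 7). The sample sets of the copy ratios and the 2 reads added were chosen after seeing the data. Of 60 single-gene and ratio results, 24 kept direction and call under every alternative. Genes under about 1 CPM rest on a handful of reads per tumour, which limits what can be seen of most Wnt ligands.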
